A study of Homo sapiens with 6 samples.

Results

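The proteasome subunit genes are the protein-coding genes whose symbol is PSMA, PSMB, PSMC, PSMD or PSME followed by a number. The rule found 43 such genes among the 61806 genes of the count table, of which 19838 are protein-coding. It uses symbols only and no measured value, though the members were chosen with earlier results of these data known. The study asked how knockdown of adipose triglyceride lipase (ATGL, gene *PNPLA2*), which releases fatty acids from stored triglyceride, alters gene expression in acute myeloid leukemia (AML) cells. Bulk RNA sequencing was performed on MV4-11, a human AML line that carries the *FLT3*-ITD mutation, with 3 libraries labelled shNC (a control shRNA) and 3 labelled shATGL. The study delivered its *ATGL* shRNAs with lentiviral vectors, and names GFP and puromycin selection for its other vectors. The labels do not say which *ATGL* shRNA was used or whether the libraries came from separate cultures, so p-values measure the spread between these libraries, which may be technical.

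*PNPLA2* did not separate the groups. Its level was 101, 97.0 and 107 CPM (deposited counts scaled to a common library size) in the shNC libraries. In those labelled shATGL it was 102, 98.1 and 104 CPM (log2 fold change −0.01, SE 0.06, edgeR adjusted p = 0.979). The label shATGL is thus not borne out by the *PNPLA2* counts of these libraries, and each direction below is that of the labelled libraries. From its own assays, the study reports less *ATGL* RNA and protein after knockdown in this cell line. Totals were between 59674064 and 74808280 counts per library. The summed level of the 11 myeloid markers was 2262 to 2388 CPM in shNC and 2142 to 2222 CPM in the shATGL-labelled libraries, without overlap, and its part in the results below was not tested. Of these markers 5 were lower and 6 higher, with a median log2 fold change of 0.0056, and the lower sum lay mainly with the abundant *LYZ* (mean 841 against 737 CPM) and *CEBPA* (626 against 547 CPM). All 11 passed the filter on low counts, whereas the 3 T-cell, 3 erythroid and 3 fibroblast markers did not, and no library exceeded 0.688 CPM for an epithelial marker. Of the B-cell markers, *MS4A1* was at 0 in every library and *CD79A* reached 2.79 CPM. The scaling factors of the TMM normalization (trimmed mean of M-values) were 0.988, 0.992 and 0.962 in shNC and 1.03, 1.02 and 1.01 in the shATGL-labelled libraries, so the groups did not overlap in this factor.

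The proteasome degrades proteins tagged with ubiquitin. Its barrel-shaped core particle is built of outer alpha rings, which gate the entry, and inner beta rings, which hold the proteolytic sites, and it is capped by a regulatory particle whose base unfolds substrates with a ring of ATPases and whose lid removes the ubiquitin chain. In immune and myeloid cells the constitutive catalytic subunits *PSMB5*, *PSMB6* and *PSMB7* can be replaced by the immunoproteasome subunits *PSMB8*, *PSMB9* and *PSMB10*, which interferon induces and which alter the peptides made for MHC class I. Proteasome genes are also known to be induced together by the transcription factor NFE2L1 through antioxidant response elements when proteasome activity is short.

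Promoters were compared because most members lay on the same side of the shNC libraries. Of the 43 members, 38 were matched in the RefSeq promoter table (GRCh38.p14), with 45 windows of 300 bases, each from 250 bases before to 50 after a transcript start. The core of the antioxidant response element (TGACNNNGC, either strand) was found in 13 of the 45 windows (28.9%), against 13.3% of all 35116 windows. The interferon-stimulated response element, searched as 2 GAAA boxes with any 2 bases between them on either strand, was in 6 windows (13.3%) against 3.57% of all, and the gamma-activated site (TTCNNNGAA, either strand) in 8 (17.8%) against 7.66%. No matches of different motifs shared a base. The pair of sequences printed first, from the outer start of the chymotrypsin-like subunit *PSMB5* and of its immunoproteasome replacement *PSMB8*, holds none of the motifs. The inner start of each gene, not printed because its window lies in exons, does: gamma-activated sites for *PSMB5*, and a gamma-activated site and an interferon element for *PSMB8*. The others show where a motif lies before the start of a member described below. Each reads 5′ to 3′ on the gene's strand, with motif letters in capitals, in the reverse orientation for *PSMB9*.
*PSMB5* promoter, chr14:23035221-23035470, minus strand: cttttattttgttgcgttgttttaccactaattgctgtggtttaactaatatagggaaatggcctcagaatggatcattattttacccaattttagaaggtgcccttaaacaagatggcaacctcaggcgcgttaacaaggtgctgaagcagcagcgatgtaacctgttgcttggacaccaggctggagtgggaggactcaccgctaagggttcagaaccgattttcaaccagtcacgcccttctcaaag
*PSMB8* promoter, chr6:32844680-32844929, minus strand: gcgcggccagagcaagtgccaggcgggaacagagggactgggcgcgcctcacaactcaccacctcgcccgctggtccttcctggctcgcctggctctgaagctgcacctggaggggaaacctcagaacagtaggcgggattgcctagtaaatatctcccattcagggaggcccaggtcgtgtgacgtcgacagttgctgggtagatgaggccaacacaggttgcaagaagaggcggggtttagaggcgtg
*PSMB3* antioxidant window, chr17:38752622-38752660, plus strand: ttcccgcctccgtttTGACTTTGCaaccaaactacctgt
*PSMD3* antioxidant window, chr17:39980755-39980793, plus strand: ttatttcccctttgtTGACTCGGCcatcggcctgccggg
*PSMD12* antioxidant window, chr17:67366719-67366757, minus strand: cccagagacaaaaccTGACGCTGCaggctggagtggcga
*PSME1* antioxidant window, chr14:24136093-24136131, plus strand: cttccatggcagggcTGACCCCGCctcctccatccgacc
*PSMB9* antioxidant window, chr6:32854029-32854067, plus strand: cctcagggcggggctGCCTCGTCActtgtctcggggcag
*PSMD5* antioxidant window, chr9:120843033-120843071, minus strand: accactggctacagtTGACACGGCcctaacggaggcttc
*PSMB4* interferon window, chr1:151399490-151399529, plus strand: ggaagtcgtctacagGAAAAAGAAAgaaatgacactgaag
*PSMA4* interferon window, chr15:78540155-78540189, plus strand: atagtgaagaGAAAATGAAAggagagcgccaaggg
*PSMA2* gamma-activated window, chr7:42932286-42932324, minus strand: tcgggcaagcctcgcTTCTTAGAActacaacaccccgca

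The members with and without each motif had similar median fold changes. The 13 tested members with an antioxidant element had a median log2 fold change of −0.12, against −0.14 for the 23 tested members without one. The 6 members with an interferon element (*PSMA4*, *PSMB4*, *PSMB8*, *PSMB10*, *PSME1* and *PSME2*) had a median of −0.18 and the 30 without it −0.12. For the gamma-activated site the medians were −0.17 in 7 members and −0.14 in 29. These are descriptions of letters in a window, and no test was made of them.

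Of the 43 members, 41 passed the filter on low counts and were tested with edgeR's quasi-likelihood test. The testis-specific alpha subunit *PSMA8* had 16, 16 and 8 counts in shNC and 4, 4 and 0 in the shATGL-labelled libraries. The thymic catalytic subunit *PSMB11* had 12 counts in shNC 1 and 0 in the other 5 libraries. The libraries thus held the transcripts of the general core particle, of the immunoproteasome subunits and of all activators, and those of the tissue-restricted subunits only at or near 0.

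Levels between genes were compared as reads per kilobase of exon (RPKM, which divides CPM by gene length), with the union of all annotated exons as the length. The structural beta subunit *PSMB4* had the highest mean level in shNC, at 192 RPKM, followed by the structural subunit *PSMB3* at 166, the alpha subunit *PSMA7* at 159, *PSMB1* at 143 and the ATPase *PSMC3* at 133 RPKM. At the other end were the base chaperones *PSMD9* (4.72 RPKM) and *PSMD5* (4.76 RPKM), which help to assemble the ATPase ring, and the immunoproteasome subunit *PSMB9* (6.47 RPKM). Neighbours in this order were often closer than their spread: *PSMD9* and *PSMD5* overlapped, and so did *PSMB3* and *PSMA7*. With coding transcript lengths *PSMB4* was again the highest, at 430 RPKM, but *PSMD4* came next, at 363, and the lowest tested members were *PSME4* (14.4 RPKM), *PSMD5* (20.01), *PSMB9* (25.4) and *PSMD9* (29.2). Within the alpha ring, whose subunits occur in equal numbers in the particle, the levels ran from 26.9 RPKM (*PSMA2*) to 159 (*PSMA7*). With the median length of coding transcripts in place of all exons, *PSMA7* stayed the highest of the ring, at 327 RPKM, and *PSMA5* became the lowest, at 111 RPKM.

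**Figure D1:**
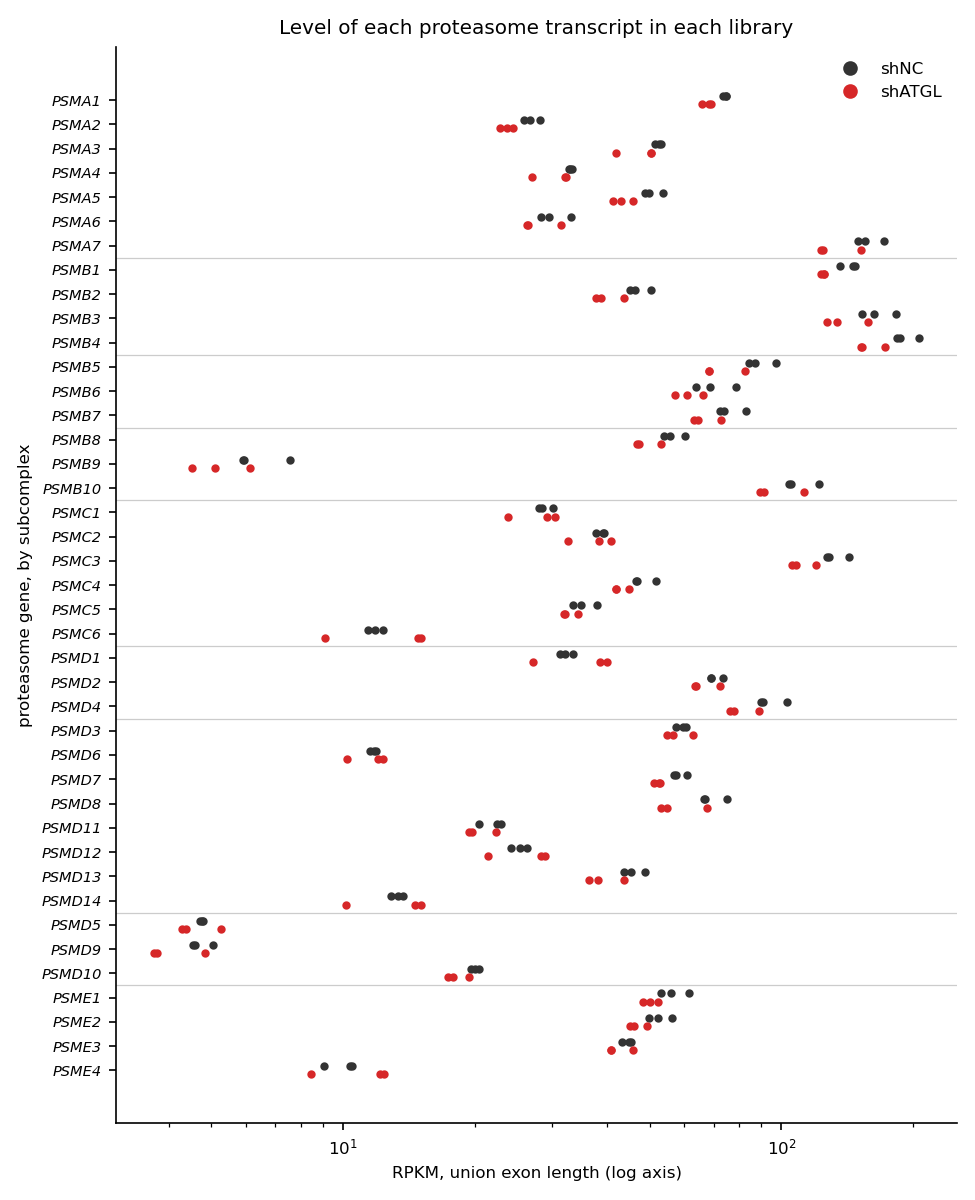
RPKM (log axis) of the 41 tested proteasome genes, 1 point per library, grouped by subcomplex and separated by lines. *PSMB4* (192 RPKM in shNC) is at the top of the range and *PSMD9* (4.72) near the bottom, and within most genes the points of both groups lie close together compared with the differences between genes.

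Core transcripts were more abundant than lid transcripts in every library. The mean log2(RPKM + 1) of the 14 core subunits minus that of the 8 lid subunits was 1.13, 1.12 and 1.20 in shNC and 0.989, 1.02 and 1.13 in the shATGL-labelled libraries. The groups overlapped, with means of 1.15 ± 0.05 and 1.05 ± 0.07 (SD, n = 3). The size of the gap depended on the length chosen, since with coding transcripts it was 0.762 in shNC and 0.658 in the shATGL-labelled libraries. The mean core level alone was 6.16, 6.12 and 6.26 in shNC and 5.94, 5.95 and 6.04 in the shATGL-labelled libraries on this log2 scale, with no overlap. The mean lid level was 5.03, 5.001 and 5.06 against 4.95, 4.94 and 4.91, also without overlap. The mean levels of core and lid thus both stood lower in the shATGL-labelled libraries, and the difference between them did not separate the groups.

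The shATGL against shNC comparison called no proteasome gene. With a threshold of 0.05 on the adjusted p and at least a 2-fold difference, edgeR called 1 of 19149 genes (0.00522%), which overlaps *PSMA6* and is described below, and 0 of the 41 members (adjusted p between 0.392 and 0.995). At an unadjusted p under 0.05, 19 members were lower in the shATGL-labelled libraries and 0 higher, where 5.94% of all tested genes were lower and 5.77% higher. In direction, 37 of 41 members were lower, against 48.1% of all genes. In 17 members the shATGL-labelled libraries all lay below the shNC libraries, against 9.38% of all genes, and in 0 members all above (7.93% of all genes). The median log2 fold change of the members was −0.17, and that of all tested genes 0.01. Among the 7781 genes whose mean CPM over all libraries was at least that of *PSMB9*, the least abundant tested member, 57.2% were lower, 11.6% were lower at an unadjusted p under 0.05, and 15.3% did not overlap in the lower direction.

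The sum over the family showed the same side. The 41 members together had 7338, 7197 and 7797 CPM in shNC and 6648, 6623 and 6882 CPM in the shATGL-labelled libraries, which is 90.2% of the shNC mean without overlap. As a share of all counts, before TMM scaling, they were 0.725%, 0.714% and 0.750% in shNC and 0.683%, 0.678% and 0.693% in the shATGL-labelled libraries. The shift was thus smaller without TMM, at 93.9% of the shNC mean. With library totals in place of TMM, 31 of 41 members were lower, 6 of them at an unadjusted p under 0.05 (*PSMA5*, *PSMB1*, *PSMB2*, *PSMB4*, *PSMB5* and *PSMC3*), where 11.7% of all genes had such a p, with a median of −0.12 against 0.07 for all genes. shNC 3 was the highest library for 27 of the 41 members, and the lowest library was always one labelled shATGL. In bulk samples, fewer cells of a type and less RNA per cell cannot be told apart.

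Transcript length moved with these differences. Among the 7724 genes that were at least as abundant as *PSMB9* and not members, the log2 fold change had a Spearman correlation of 0.59 with the length of the longest transcript, and among the 41 members the correlation was 0.58 (points share the 6 libraries, and genes are not replicates). The 625 abundant genes with a longest transcript under 1500 bases had a median log2 fold change of −0.22, and the 9 members of that length had −0.20. From 1500 to 3000 bases the median was −0.11 in 2207 genes and −0.17 in 15 members. From 3000 to 5000 bases it was −0.02 in 2562 genes and −0.08 in 16 members. The shortest members thus stood where other short abundant genes stood, and members of intermediate length stood somewhat lower, 13 of 15 and 13 of 16 of them below the median of the other genes.

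Removing these trends changed the picture. When each library's trends with length and GC content were estimated over abundant genes and removed, an alternative chosen after the data were seen, 32 of 41 members were lower and the median was −0.06. Only 6 members then had an unadjusted edgeR p under 0.05, all lower (*PSMA2*, *PSMA4*, *PSMB2*, *PSMB4*, *PSMC3* and *PSMD14*), where 11.2% of all tested genes had such a p in either direction and 6.95% of the other abundant genes had one in the lower direction. The median of those other genes was −0.016, against −0.064 for the members. The correlation with length was then −0.05 among the other abundant genes but −0.45 among the 41 members, so that the longer members were the lower ones after this correction. The constitutive catalytic subunits *PSMB5*, *PSMB6* and *PSMB7* then had log2 fold changes of −0.08, 0.05 and 0.06. When the trends were estimated over all genes with a mean of at least 10 counts, the correlation with length was 0.31 among the other abundant genes and 0.12 among the members. Then 40 of 41 members were lower with a median of −0.19, against −0.06 for all tested genes. Of these, 23 had an unadjusted edgeR p under 0.05, where 14.5% of all genes had one in either direction. The other abundant genes then had medians of −0.23 under 1500 bases, −0.12 from 1500 to 3000 and −0.08 from 3000 to 5000. The members of these lengths had −0.20, −0.19 and −0.19.

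The count changed with the libraries kept. With all 6 libraries, 19 members and 11.7% of all genes had an unadjusted p under 0.05. Without shATGL 3, 32 members had an unadjusted p under 0.05 (27 lower and 5 higher), where 28.8% of all genes had one. Then 18 members had an adjusted p under 0.05 (15 lower and 3 higher), where 14% of all genes passed, and 319 genes were called. The 3 higher members were *PSMC6* (log2 fold change 0.34), *PSMD1* (0.28) and *PSME4* (0.30). Without shNC 3, 4 members had an unadjusted p under 0.05, where 5.58% of all genes had one. The count was 9 without shNC 1 (7.61% of all genes), 14 without shNC 2 (9.27%), 6 without shATGL 1 (5.31%) and 5 without shATGL 2 (5.17%). Another normalization, the upper quartile, left 11 members at that p (10.2% of all genes). A replicate block gave 24 (17.3%) and a correction by genomic span 24 (14.9%). With limma voom there were 30 (30.6%), 27 lower and 3 higher (*PSMC6*, *PSMD1* and *PSME4*). Of the 30, 15 had an adjusted p under 0.05 (10.8% of all genes), all lower. Over the fits that each left out 1 library, the median over members ranged from −0.20 to −0.12.

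**Figure D2:**
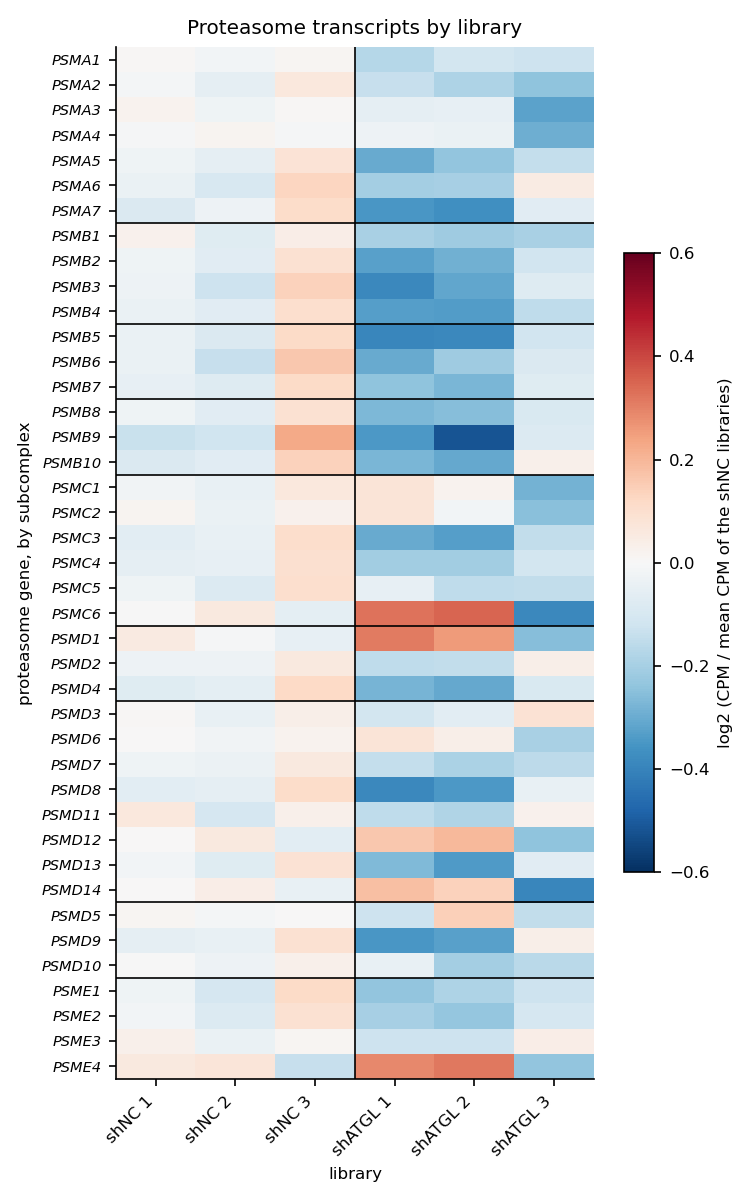
Log2 ratio of each member's CPM in each library to its shNC mean (blue lower, red higher), by subcomplex. shNC 3 is the reddest of the shNC columns, and shATGL 3 departs from shATGL 1 and 2 in *PSMC6*, *PSMD1*, *PSMD12*, *PSMD14* and *PSME4*, which are red in shATGL 1 and 2 and blue in shATGL 3.

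In the alpha ring all 7 subunits were lower, 4 of them at an unadjusted p under 0.05, with a median log2 fold change of −0.14. *PSMA5* had 285, 279 and 307 CPM in shNC and 236, 246 and 263 CPM in the shATGL-labelled libraries (log2 fold change −0.23, SE 0.07, edgeR adjusted p = 0.392). *PSMA2* had 142, 138 and 150 CPM against 130, 126 and 121 CPM (−0.19, SE 0.06). *PSMA1* had 247, 242 and 247 CPM against 218, 228 and 225 CPM (−0.14, SE 0.05). In each of these the groups did not overlap, and the exact two-sided permutation p was 0.1, the smallest that 3 against 3 can give. *PSMA7*, the most abundant of the ring, had 261, 272 and 300 CPM against 218, 215 and 265 CPM (−0.25, SE 0.10). Its shATGL 3 value lay between shNC 1 and shNC 2, so the groups overlapped. With the trends of abundant genes removed, 6 of the 7 were lower and the median was −0.18. *PSMA1* then stood at 0.04, *PSMA7* at −0.04 and *PSMA3* at −0.08. *PSMA4* stood at −0.18, *PSMA6* at −0.21, *PSMA2* at −0.26 and *PSMA5* at −0.30 (SE 0.16).

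*PSMA6* shares 919 exonic bases (14.1% of its exons) with the gene ENSG00000258790 on the same strand at chr14:35122549-35317474 (GRCh38, GENCODE 29). That gene is the 1 called in the whole comparison. It had 33.8, 41.3 and 37.3 CPM in shNC and 8.57, 7.85 and 9.67 CPM in the shATGL-labelled libraries (log2 fold change −2.11, SE 0.12, edgeR adjusted p = 0.00358). *PSMA6* itself had 192, 184 and 215 CPM against 171, 172 and 204 CPM (−0.11, SE 0.09), with overlapping groups. Since reads in shared exons can be assigned to either gene, their sum was also examined: 225, 226 and 252 CPM against 180, 179 and 214 CPM (−0.30, SE 0.09, adjusted p = 0.392), without overlap. The strand setting of the counting is not given in the sources used here, so reads of opposite-strand neighbours cannot be told apart either. *PSMA3* overlaps its antisense gene *PSMA3-AS1* in span, but the 2 genes share 0 annotated exonic bases. Their sum gave −0.04, against −0.14 for *PSMA3* alone and 0.49 (SE 0.20) for *PSMA3-AS1* alone.

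The 4 structural beta subunits were all lower, all 4 at an unadjusted p under 0.05, with a median of −0.25. *PSMB4*, whose window with an interferon element is printed above, had 403, 396 and 444 CPM in shNC and 329, 329 and 373 CPM in the shATGL-labelled libraries (−0.27, SE 0.07, edgeR adjusted p = 0.392). *PSMB1* had 329, 307 and 332 CPM against 282, 278 and 282 CPM (−0.20, SE 0.05), and its unadjusted p of 0.00678 was the smallest of the family. *PSMB2* had 225, 219 and 244 CPM against 183, 188 and 212 CPM (−0.24, SE 0.08). These 3 did not overlap. *PSMB3*, which carries an antioxidant element, had 192, 180 and 216 CPM against 150, 158 and 186 CPM (−0.25, SE 0.10), with shATGL 3 above shNC 2. *PSMB3* has the shortest longest transcript of the family, 773 bases, and stood at 0.01 with the trends of abundant genes removed.

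The constitutive catalytic subunits cut proteins after different residues. The chymotrypsin-like *PSMB5*, the target of the drug bortezomib, had 154, 149 and 171 CPM in shNC and 120, 121 and 146 CPM in the shATGL-labelled libraries (−0.29, SE 0.10, edgeR adjusted p = 0.392). The caspase-like *PSMB6* had 99.3, 92.6 and 114 CPM against 82.8, 88.1 and 96.0 CPM (−0.20, SE 0.10). The trypsin-like *PSMB7* had 132, 130 and 148 CPM against 116, 113 and 130 CPM (−0.19, SE 0.08). All 3 were lowest in shATGL 1 or 2 and highest in shNC 3, and the groups were apart for *PSMB5* only.

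The immunoproteasome subunits lay on the same side as the subunits they replace. *PSMB8*, the replacement for *PSMB5*, had 167, 161 and 180 CPM in shNC and 141, 142 and 159 CPM in the shATGL-labelled libraries (−0.20, SE 0.07, edgeR adjusted p = 0.397), without overlap. *PSMB9*, the replacement for *PSMB6*, was the least abundant, with 18.1, 18.3 and 23.2 CPM against 15.6, 13.9 and 18.8 CPM (−0.30, SE 0.15). *PSMB10*, the replacement for *PSMB7*, had 193, 195 and 225 CPM against 169, 165 and 209 CPM (−0.18, SE 0.11). The last pair of genes overlapped between groups, with shATGL 3 above at least 1 shNC library. *PSMB8* and *PSMB9* are neighbours on opposite strands (chr6:32840717-32844703 and chr6:32844136-32859585, GRCh38, GENCODE 29), share 139 exonic bases with each other and also overlap *PSMB8-AS1*. With the counts of *PSMB8-AS1* added, the log2 fold changes were −0.20 for *PSMB8* and −0.24 for *PSMB9*.

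The balance between immunoproteasome and constitutive catalytic subunits did not separate the groups. The mean log2(RPKM + 1) of *PSMB8*, *PSMB9* and *PSMB10* minus that of *PSMB5*, *PSMB6* and *PSMB7* was −1.16, −1.11 and −1.12 in shNC and −1.10, −1.17 and −1.08 in the shATGL-labelled libraries, a difference of 0.01 between means with overlapping groups, whose sign turned under 3 alternatives, without shNC 1 and without shATGL 3. The replacement furthest below its counterpart was *PSMB9*, whose RPKM was 0.0859, 0.0930 and 0.0959 times that of *PSMB6* in shNC and 0.0890, 0.0742 and 0.0921 times in the shATGL-labelled libraries. *PSMB10* exceeded *PSMB7* in RPKM, with ratios of 1.41, 1.45 and 1.47 against 1.41, 1.41 and 1.55. The ratio of *PSMB8* to *PSMB5* in RPKM was 0.638, 0.639 and 0.621 in shNC and 0.687, 0.692 and 0.642 in the shATGL-labelled libraries. That ratio was higher without overlap, at 107% of the shNC mean, and shATGL 3 lay only just above the shNC values. With coding lengths it was 0.860 against 0.916 on average, that of *PSMB9* to *PSMB6* was 0.214 against 0.199, and that of *PSMB10* to *PSMB7* was 1.39 against 1.40. These ratios were not tested.

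**Figure D3:**
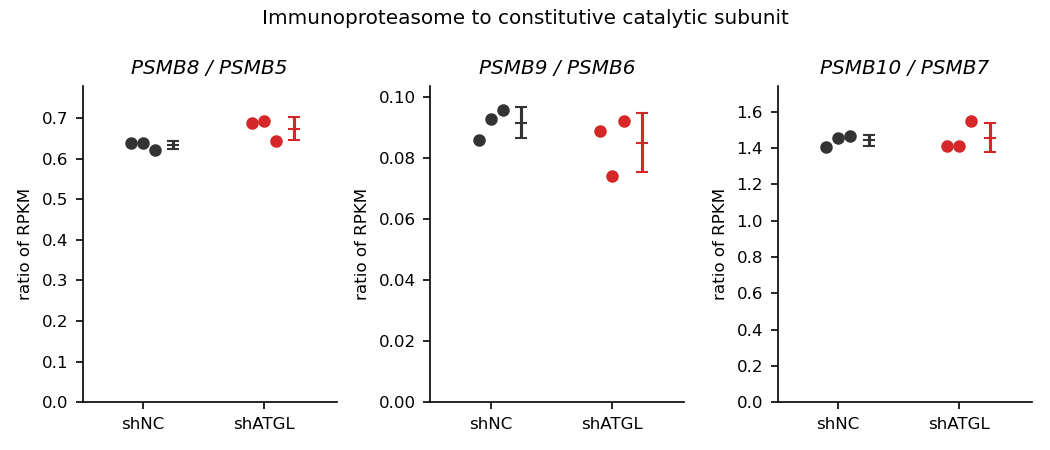
Ratio of the RPKM of each immunoproteasome subunit to that of the constitutive subunit it replaces, 1 point per library, with mean ± SD (n = 3) at the right of each group. For *PSMB8* over *PSMB5* the 3 points labelled shATGL (0.642 to 0.692) lie above those of shNC (0.621 to 0.639), and for the other ratios the groups overlap.

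The base of the regulatory particle was split. Of its 6 ATPases 5 were lower, 2 of them at an unadjusted p under 0.05. *PSMC3* had 289, 293 and 325 CPM in shNC and 245, 241 and 273 CPM in the shATGL-labelled libraries (−0.26, SE 0.07, edgeR adjusted p = 0.392). *PSMC4* had 111, 112 and 124 CPM against 100, 99.9 and 107 CPM (−0.17, SE 0.07), also without overlap. *PSMC6*, another ATPase of the same ring and the least abundant per length (11.8 RPKM), had 88.5, 92.2 and 85.1 CPM in shNC and 111, 113 and 67.8 CPM in the shATGL-labelled libraries (0.13, SE 0.18). Its shATGL 1 and 2 values were above every shNC library and its shATGL 3 value below all of them. *PSMC1* (−0.05, SE 0.10) and *PSMC2* (−0.06, SE 0.09) also had shATGL 1 as the highest and shATGL 3 as the lowest of all 6 libraries.

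Of the other base subunits, the ubiquitin receptor *PSMD4* had 272, 274 and 311 CPM in shNC and 236, 231 and 268 CPM in the shATGL-labelled libraries (−0.22, SE 0.08, edgeR adjusted p = 0.399). The scaffold subunit *PSMD1* had 174, 166 and 162 CPM against 208, 200 and 140 CPM (0.12, SE 0.14), again split between shATGL 1 and 2 on one side and shATGL 3 on the other. The other scaffold, *PSMD2*, had 377, 377 and 401 CPM against 346, 348 and 394 CPM (−0.09, SE 0.07). The ubiquitin receptor *ADRM1*, which binds the base but is named outside the rule, had a log2 fold change of −0.20 (SE 0.08).

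In the lid 7 of 8 subunits were lower, 3 of them at an unadjusted p under 0.05, with a median of −0.06. *PSMD7*, the partner of the deubiquitinase *PSMD14*, had 157, 156 and 167 CPM in shNC and 145, 140 and 144 CPM in the shATGL-labelled libraries (−0.16, SE 0.06, edgeR adjusted p = 0.392), without overlap. *PSMD8* had 207, 208 and 234 CPM against 165, 170 and 210 CPM (−0.25, SE 0.10), and *PSMD13* 216, 208 and 232 CPM against 182, 173 and 209 CPM (−0.22, SE 0.08). In both, shATGL 3 reached into the shNC range. *PSMD14* itself, which cuts the ubiquitin chain off the substrate, had 102, 105 and 99.0 CPM against 116, 112 and 78.0 CPM (−0.00, SE 0.14). *PSMD12* had 136, 141 and 129 CPM against 152, 155 and 115 CPM (0.05, SE 0.12), the only lid subunit with a positive value. The lid held longer transcripts than the core, with medians of 3493 and 1733 bases for the longest transcript. After the trends of abundant genes were removed, the medians were −0.10 for the 14 core subunits and −0.08 for the 8 lid subunits, against −0.20 and −0.06 before.

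The base chaperones leave the particle once it is assembled. *PSMD10* had 49.0, 48.0 and 50.2 CPM in shNC and 47.7, 42.7 and 43.8 CPM in the shATGL-labelled libraries (−0.13, SE 0.07), with no overlap. *PSMD9* had 39.9, 40.2 and 44.2 CPM against 32.5, 33.0 and 42.4 CPM (−0.20, SE 0.12), and *PSMD5* 21.2, 20.9 and 21.1 CPM against 19.4, 23.3 and 19.0 CPM (−0.04, SE 0.10). None of the 3 had an unadjusted p under 0.05.

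The activators cap the core in place of, or beside, the regulatory particle. *PSME1* and *PSME2* form an interferon-inducible ring, and their promoter windows each held the interferon element. *PSME1* had 99.5, 94.6 and 110 CPM in shNC and 85.9, 89.2 and 93.0 CPM in the shATGL-labelled libraries (−0.18, SE 0.07, edgeR adjusted p = 0.414). *PSME2* had 187, 179 and 202 CPM against 165, 161 and 177 CPM (−0.17, SE 0.07, edgeR adjusted p = 0.405). Both were without overlap, and both shifted towards 0 with the trends of abundant genes removed, to 0.05 for *PSME1* and −0.06 for *PSME2*. The nuclear activator *PSME3* had 234, 223 and 231 CPM against 210, 210 and 236 CPM (−0.07, SE 0.06). *PSME4*, a large single-chain nuclear activator with the longest transcript of the family (7099 bases), had 106, 107 and 92.4 CPM against 124, 127 and 86.5 CPM (0.14, SE 0.15), high in shATGL 1 and 2 and lowest of all libraries in shATGL 3.

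Genes that assemble or regulate the proteasome, from lists chosen with earlier results of these data known, had 0 adjusted p under 0.05. Of 15 assembly and associated factors 12 were lower, where 48.1% of all genes were, and the median of the 15 was −0.11. Of the 12, 3 had an unadjusted p under 0.05 (*PSMG1* −0.19, SE 0.08, *PSMG2* −0.24, SE 0.08, and *ADRM1*), where 5.94% of all genes were lower at that p. *PSMG1* and *PSMG2* encode the chaperone pair that starts the alpha ring. The core maturation factor *POMP* had 106, 107 and 110 CPM in shNC and 106, 99.3 and 83.6 CPM in the shATGL-labelled libraries (−0.16, SE 0.09), the lid-associated *SEM1* stood at −0.11 (SE 0.11), and the inhibitor *PSMF1* at −0.04 (SE 0.07). Of 8 regulators 5 were lower and 3 higher. *NFE2L1*, the transcription factor that induces proteasome genes, had 159, 165 and 166 CPM against 158, 152 and 179 CPM (−0.00, SE 0.07), and *DDI2*, the protease that activates it, had 27.1, 31.9 and 28.1 CPM against 41.0, 37.8 and 31.2 CPM (0.34, SE 0.12), with shATGL 3 inside the shNC range. *NFE2L1* thus had no difference beyond its spread, while *DDI2* was the 1 regulator at an unadjusted p under 0.05. With length and GC trends of all genes removed, *DDI2* stood at 0.13 and had an unadjusted edgeR p of 0.152.

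Of 12 ubiquitin supply and shuttle factors 8 were lower, 4 of them at an unadjusted p under 0.05, and the median log2 fold change was −0.04. Of all tested genes 48.1% were lower, and 5.94% were lower at that p. Among the 7781 genes at least as abundant as *PSMB9* these shares were 57.2% and 11.6%. *UBB* (−0.18, SE 0.06), which encodes a chain of ubiquitin units, and *RPS27A* (−0.28, SE 0.07), which encodes ubiquitin fused to a ribosomal protein, were among those at that p and had no overlap between groups. Of 10 genes of antigen processing 5 were lower and 5 higher, none at an unadjusted p under 0.05, and the peptide transporter *TAP1*, a neighbour of *PSMB9*, had 48.1, 48.2 and 49.0 CPM in shNC and 42.8, 43.0 and 50.5 CPM in the shATGL-labelled libraries (−0.09, SE 0.08). Of the interferon-inducible proteasome genes *PSMB8*, *PSMB9*, *PSMB10*, *PSME1* and *PSME2* 5 of 5 were lower, where 37 of all 41 members and 48.1% of all genes were. The difference between these counts was not tested. With the trends of abundant genes removed, the 5 genes stood, in this order, at −0.08, −0.21, −0.01, 0.05 and −0.06.

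Reads shared with other genes limit some of these values. Exonic bases were shared with a gene of at least 10% of the member's counts in 8 of the 43 members. *PSMC1* shared 75.8% of its exonic bases with *NRDE2* on the opposite strand, and *PSMC5* 19.5% with *FTSJ3*. Processed copies took few counts: of 42 annotated proteasome pseudogenes 20 had a count and 4 had at least 100, the largest being *PSMC1P1* with 345 to 527 counts per library.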

How the data were processed

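Bulk RNA sequencing was performed on MV4-11 cells, with 3 shNC and 3 shATGL libraries. The authors deposited raw read counts per gene, without normalization, for 61806 human Ensembl genes; the submitters' processing notes list the mouse build mm10, and the aligner, counter, strand setting and annotation are not given in the sources used here. The labels describe 2 RNA extractions (Trizol and a miRNeasy kit) and amplification by Geo-seq. Columns matched the labels, and 0 columns belonged to other samples. Of the identifiers, 58254 had a GRCh38 position in GENCODE 29, whose symbols, lengths and coordinates were used.

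The main test was that of edgeR 4.0.16 under R 4.3.3 (filterByExpr with minimum count 10 and minimum total 15, TMM, quasi-likelihood test, no block), with Benjamini-Hochberg adjustment over 19149 genes. DESeq2 1.42.0 and limma 3.58.1 (voom with quality weights), other normalizations and filters, a replicate block and trend corrections by natural splines (4 degrees of freedom) were alternatives. CPM used TMM-scaled totals, and RPKM divided these by union exon length or coding transcript length. Single members were also compared by exact two-sided permutation over 20 relabellings of log2(CPM + 1). Totals were 59674064 to 74808280 counts per library, and counting error was not separated from the spread between libraries. Tests were checked on simulated counts in which single genes changed by more than 2-fold. That check does not cover differences as small as those of the members.

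The members and lists were chosen with earlier results of these data known. Members named were the catalytic subunits and activators, those at an unadjusted p under 0.05, those highest and lowest by RPKM and by fold change in a subcomplex, those the filter removed, and *PSMA6* with its overlapping gene. Of the other lists, genes at an unadjusted p under 0.05 and *ADRM1*, *SEM1*, *POMP*, *NFE2L1*, *PSMF1* and *TAP1* were named. Some results that this rule would name are not reported here. *PSMC1*, *PSMC2* and *PSMC5* and the other genes outside this rule were named after their values were seen. The corrections by genomic span and over abundant genes, library totals without TMM and summed overlapping genes were chosen after seeing the data.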

Additional observations from a re-analysis of the deposited data

How the results depend on the processing

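No proteasome gene was called under any alternative, and the median over members stayed below 0 in all of them. The number of genes called was 3 with upper-quartile normalization, 24 with DESeq2, 266 with limma voom and 0 with a replicate block. Members at an unadjusted p under 0.05 numbered 11 with upper-quartile normalization and 6 with library totals without TMM. They numbered 30 with limma voom, 27 lower and 3 higher. Of these 30, 15 had an adjusted p under 0.05, all lower, where 10.8% of all genes passed. With the trends of abundant genes removed they numbered 6, and the median was −0.064. Leaving out 1 library at a time gave 0 to 319 genes called, 0 members called, 4 to 32 members at an unadjusted p under 0.05, medians of −0.20 to −0.12, a core minus lid difference of −0.15 to −0.076 and an immunoproteasome minus constitutive difference of −0.0060 to 0.039. With 2 libraries left, a group is assumed to vary like the other. The core minus lid level within libraries was 1.10 over all 6, 0.710 with coding lengths and 1.01 with medians. The immunoproteasome minus constitutive difference turned to −0.0098 with medians, −0.00072 with a pseudocount of 0.1 and −0.0085 with length and GC corrected.

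Whether same-numbered libraries are pairs could not be settled. Deviations of same-numbered libraries correlated at 0.06, 0.23 and 0.34, and others at −0.29 to 0.19. Of the 6 libraries 4, those numbered 2 and 3, correlated best with their own number, while those numbered 1 did not. With the replicate block 24 members had an unadjusted p under 0.05 and the smallest adjusted p was 0.0897.

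Of the 41 members, 16 turned sign under some alternative. With at least 10 counts in every library *PSMD14* was 0.0025. With genomic span and GC trends removed *PSMC6* was −0.0082, *PSMD1* −0.0049, *PSMD12* −0.10 and *PSME4* −0.028. With length and GC trends of all genes removed *PSMC6* was −0.012, *PSMD12* −0.13 and *PSME4* −0.044. With library totals without TMM *PSMC1* was 0.0054, *PSMC2* 0.00048, *PSMD3* 0.029, *PSMD6* 0.035, *PSMD14* 0.056 and *PSMD5* 0.021. With limma voom *PSMC1* was 0.042, *PSMC2* 0.016, *PSMD6* 0.044 and *PSMD14* 0.12. With the trends of abundant genes removed *PSMA1* was 0.039, *PSMB3* 0.0065, *PSMB6* 0.048, *PSMB7* 0.057, *PSMD3* 0.068, *PSMD12* −0.073, *PSME1* 0.046, *PSME3* 0.0071 and *PSME4* −0.019. Leaving out 1 library gave −0.12 to 0.047 for *PSMC1*, −0.13 to 0.028 for *PSMC2*, −0.024 to 0.18 for *PSMD12*, −0.10 to 0.16 for *PSMD14*, −0.089 to 0.012 for *PSMD3*, −0.14 to 0.015 for *PSMD5* and −0.076 to 0.055 for *PSMD6*. The cause was not tested.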
